A study of Mus musculus with 9 samples.

Results

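A set of 10 genes of transforming growth factor beta (TGF-beta) signalling was described in mouse regulatory T (Treg) cells that lack CBP or p300, the paired acetyltransferases that serve as coactivators of Smad proteins. The genes were Tgfb1, Tgfbr1, Tgfbr2, Smad2, Smad3, Smad4, Smad7, Ski, Skil and Itgav, and every probe set that the platform annotation gives to exactly 1 of these symbols was used. This gave 10 of the 12393 genes with a probe set of a single symbol, and 20 of the 22626 probe sets tested. The study compared CD4+CD25+ Treg cells, separated with magnets, in 3 groups of 3 arrays, with 1 independent sample per array. All mice were on the C57Bl/6 background. The deleted groups were fl-CBP/Foxp3cre, called CBP-deleted here, and fl-p300/Foxp3cre, called p300-deleted, in which a Cre recombinase driven from Foxp3 acts on a floxed allele in cells that express Foxp3. The controls carry the genotype label Foxp3cre control and the title WT, and no floxed allele is named for them. Ages, and whether a sample came from 1 mouse or several, are not given in the sources used here.

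TGF-beta 1 is secreted in a latent form, held by its own propeptide, and integrins that contain the alpha v chain (Itgav) can release it. The active ligand binds a type II receptor (Tgfbr2), which phosphorylates a type I receptor (Tgfbr1). The type I receptor phosphorylates Smad2 and Smad3, which join Smad4, enter the nucleus and recruit coactivators such as CBP and p300. Smad7 blocks the receptors, and Ski and Skil (SnoN) repress Smad complexes on DNA; Smad7 and Skil are themselves induced by the pathway. In T cells TGF-beta restrains effector differentiation, helps naive cells to express Foxp3 and is itself made by Treg cells.

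The members had differences of at most 0.59 on the log2 scale in any comparison. In CBP-deleted cells Tgfb1 fell to 73.7% of the control level. Between the knockouts, Skil and Itgav were lower in CBP-deleted than in p300-deleted cells, at 69.3% and 77.7% of the p300-deleted level. No member passed the test between p300-deleted and control cells. The receptors and the Smads passed in no comparison.

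The promoters of the genes on which these results turn are shown where the RefSeq promoter table (GRCm38.p6) holds one: Tgfb1 and Itgav, the members called, and Id3, the target gene of the pathway with the largest fall apart from Foxp3. Promoters on a single chromosome were left out of this look-up. Of the 10 members, Tgfb1, Tgfbr1, Tgfbr2, Smad3, Ski and Itgav had an entry among the rest, 6 in all. A member without one here may still have an entry in the table. Each sequence runs 5′ to 3′ on the gene's strand, from 250 bases before to 50 bases after the annotated start. Capitals mark the GC box GGGCGG, which Sp1 family factors bind, and the Smad box CAGAC, each searched on both strands.
Tgfb1 promoter, chr7:25686752-25687051, + strand: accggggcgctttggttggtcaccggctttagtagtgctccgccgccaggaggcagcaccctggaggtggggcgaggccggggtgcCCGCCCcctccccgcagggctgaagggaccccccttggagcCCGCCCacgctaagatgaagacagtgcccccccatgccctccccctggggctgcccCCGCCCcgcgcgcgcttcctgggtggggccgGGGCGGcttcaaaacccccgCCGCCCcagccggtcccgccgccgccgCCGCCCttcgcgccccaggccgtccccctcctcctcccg
Itgav promoter, chr2:83724147-83724446, + strand: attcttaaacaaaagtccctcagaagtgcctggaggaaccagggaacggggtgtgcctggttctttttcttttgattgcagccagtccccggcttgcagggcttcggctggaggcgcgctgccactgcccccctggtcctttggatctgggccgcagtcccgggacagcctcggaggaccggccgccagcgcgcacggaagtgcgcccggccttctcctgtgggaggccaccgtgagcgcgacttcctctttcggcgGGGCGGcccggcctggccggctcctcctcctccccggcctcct
Id3 promoter, chr4:136143572-136143871, + strand: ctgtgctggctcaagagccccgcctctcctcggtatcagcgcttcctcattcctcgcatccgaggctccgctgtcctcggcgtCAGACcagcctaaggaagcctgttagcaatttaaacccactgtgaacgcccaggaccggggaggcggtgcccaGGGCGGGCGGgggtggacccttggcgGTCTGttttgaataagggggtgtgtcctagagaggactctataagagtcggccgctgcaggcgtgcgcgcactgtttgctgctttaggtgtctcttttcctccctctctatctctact

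The Tgfb1 window held 6 GC boxes and no Smad box, and the Itgav window 1 GC box and no Smad box. The Id3 window held 2 Smad boxes, which start at -167 and -68 from the annotated start, and 2 GC boxes that overlap each other. No Smad box overlapped a GC box. Of all 32851 promoters of this length in the table, 35.7% held a GC box and 49.6% a Smad box. The cyclic AMP response element TGACGTCA, the site of the CREB factors for which CBP is named, was in none of the 3 windows and in 1.79% of all promoters. These matches describe the letters only.

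The deposited values are log2 RMA values, 1 per probe set and array, with array medians of 5.49 to 5.59. They are read within a probe set and not between probe sets, because probes differ in affinity. A probe set was called when the limma p-value, adjusted by Benjamini-Hochberg over all 22626 probe sets, was under 0.05. T cell markers were bright on all arrays, with Cd3e at 11.33 to 11.74 and Cd4 at 8.96 to 10.11. The Treg marker Il2ra, which encodes CD25, read 8.77 to 9.33. The mean of the Foxp3 probe set was 9.60 for the controls, against 2.87 with CBP deleted and 2.95 with p300 deleted. Whether it reads the transcript of the Cre-bearing allele is not given, so a fall of Foxp3 itself is not established. The label Foxp3cre control and the title WT do not settle whether the controls carry that allele in the same form. The part of that allele in the differences from the control was not tested. Levels of Xist in these arrays, 3.44 to 3.80, served as a mark of near-background signal. This mark sets probe sets of unlike affinity side by side, so it is rough. By it 15 of the 20 member probe sets, with at least 1 for each of the 10 genes, had a mean above background and 5 did not.

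Tgfb1, the ligand, was read by 1 probe set. The controls read 9.43, 9.24 and 9.24, the CBP-deleted arrays 8.89, 8.94 and 8.77, and the p300-deleted arrays 9.05, 9.08 and 9.20. The 3 groups did not overlap, with controls highest, p300-deleted cells between and CBP-deleted cells lowest. Tgfb1 was the only one of the 20 member probe sets for which all 3 groups lay apart, and 2.62% of all probe sets did so. Tgfb1 fell by 0.44 (SE 0.09, 95% interval -0.64 to -0.24) in CBP-deleted cells, with a limma adjusted p of 0.0327. The p300-deleted level differed from the control by -0.20 (SE 0.09, adjusted p = 0.298), and its interval of -0.39 to 0.00 reached 0. The difference between the knockouts, -0.25 with an interval of -0.44 to -0.05, did not pass either (adjusted p = 0.193). A fall seen in CBP-deleted cells alone is therefore not shown. In bulk RNA, fewer cells of a type and less RNA per cell cannot be told apart.

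The Tgfb1 call was near the threshold. It was lost without any one of CBP-deleted replicates 1, 2 or 3, control replicate 1 or p300-deleted replicate 2, at adjusted p of 0.0584 to 0.137, while the difference stayed between -0.38 and -0.49 under all 20 alternatives. It was also lost without the trend (adjusted p = 0.0505), with only these groups in the fit (0.0851), with the replicate number as a block (0.0721) and with the level of 18S ribosomal RNA as a covariate (0.0617), which averaged 7.75 on CBP-deleted, 8.52 on p300-deleted and 6.97 on control arrays (SD 0.32, 0.96 and 1.66, n = 3 each).

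Some measures that are not of T cells differed in the same comparison. Of 6 measured B cell markers, 2 fell in CBP-deleted cells, Cd79a by 1.03 and Cd79b by 0.84, and their summed level on a log2 scale was 8.59 to 9.21 against 9.56 to 9.86 in controls; Pax5 was below the Xist mark on every array. The 6 platelet markers, cells rich in TGF-beta 1, had a summed level of 7.45 to 7.53 in CBP-deleted cells, 7.49 to 7.51 in p300-deleted cells and 7.56 to 7.98 in controls, with 0 of 6 passing in either comparison with the control. Of 11 myeloid markers 0 passed, with a median difference of 0.73 and summed levels of 9.64 to 12.38 in CBP-deleted cells against 8.54 to 10.03 in controls; Itgam was below the Xist mark on every array. The largest of these differences were those of S100a9 (2.48, adjusted p = 0.165), S100a8 (2.47, adjusted p = 0.159) and Camp (1.41, adjusted p = 0.148), each with all CBP-deleted arrays above all controls. Of 5 mast cell and basophil markers 0 passed, with Mcpt8 at 1.44 (adjusted p = 0.103). The hybridisation spike-ins, bacterial and phage RNAs added to each sample, averaged log2 10.38 to 10.59 on CBP-deleted, 10.63 to 10.92 on p300-deleted and 10.72 to 11.11 on control arrays. The 3′ minus 5′ signal of Gapdh, a sign of RNA integrity, was -0.15 to 0.11 on CBP-deleted, 0.06 to 0.17 on p300-deleted and 0.20 to 0.60 on control arrays. For Actb the ranges overlapped (0.28 to 0.47, 0.29 to 0.41 and 0.28 to 0.44). The part of these measures in the Tgfb1 result was not tested.

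**Figure D1:**
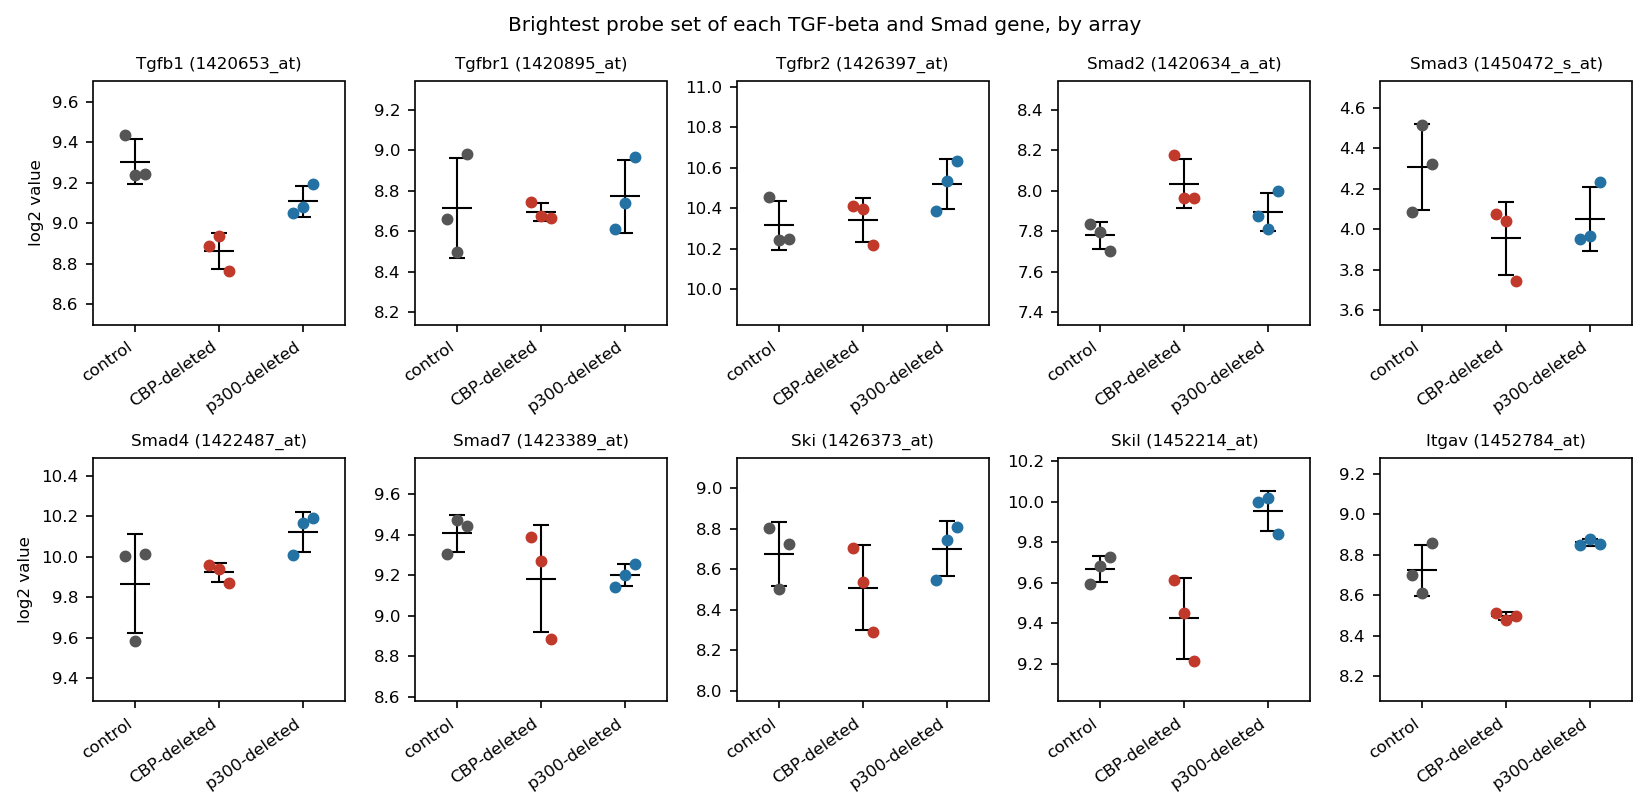
Log2 value (y axis, a span of 1.2 in every panel) of the brightest probe set of each of the 10 genes on the 9 arrays, by group (x axis). Points are arrays, and bars are the mean and SD of 3 arrays. Tgfb1 separates all 3 groups, and Skil, Itgav and Smad4 separate the knockouts. Smad2, Smad3 and Itgav separate CBP-deleted from control arrays, and Smad7 and Skil separate p300-deleted from control arrays. The receptors and Ski overlap.

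Itgav, the alpha v integrin chain that takes part in the release of TGF-beta, had 3 probe sets. The brightest, 1452784_at, read 8.51, 8.48 and 8.50 in CBP-deleted cells, 8.85, 8.88 and 8.85 in p300-deleted cells and 8.70, 8.61 and 8.86 in controls. The CBP-deleted arrays lay below all others, and the p300-deleted arrays overlapped the controls. Itgav was lower in CBP-deleted than in p300-deleted cells by -0.36 (SE 0.09, 95% interval -0.55 to -0.17, limma adjusted p = 0.0459). Its difference from the control was -0.23 (adjusted p = 0.183) in CBP-deleted and 0.14 (adjusted p = 0.460) in p300-deleted cells. These comparisons share arrays, and neither difference from the control passed.

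The other Itgav probe sets did not carry the difference between the knockouts. 1421198_at, at 4.09 to 4.44 over all arrays, differed by 0.02 between the knockouts, and 1432296_a_at was below the Xist mark on every array, at 3.26 to 3.64. The Itgav call was lost without any single knockout array, without control replicate 1 and with the array medians subtracted. Of the 20 alternatives 12 did not make it (adjusted p 0.00550 to 0.358 over all 20), and for the mean of the gene's probe sets the difference was -0.16.

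The receptors differed little. Tgfbr2, the receptor that binds the ligand first, read 10.41, 10.40 and 10.22 in CBP-deleted cells, 10.39, 10.54 and 10.64 in p300-deleted cells and 10.45, 10.24 and 10.25 in controls with its brightest probe set, 1426397_at. The 3 groups overlapped. The difference from the control was 0.03 (95% interval -0.18 to 0.23) in CBP-deleted and 0.20 (95% interval 0.00 to 0.41, adjusted p = 0.295) in p300-deleted cells. A second Tgfbr2 probe set read 5.65 to 6.04 and differed from the control by -0.20 and -0.09, and the third was at background, at 1.85 to 2.30.

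Tgfbr1, the signalling kinase of the pair, read 8.74, 8.68 and 8.66 in CBP-deleted cells, 8.61, 8.74 and 8.97 in p300-deleted cells and 8.66, 8.50 and 8.98 in controls with 1420895_at. The spread among controls, an SD of 0.25, was wider than any difference between group means. Tgfbr1 differed from the control by -0.02 (95% interval -0.30 to 0.27) in CBP-deleted and 0.06 (95% interval -0.23 to 0.34) in p300-deleted cells. Its other 2 probe sets were at background, at 2.50 to 2.93 and 2.62 to 2.92. Against the control, the intervals of both brightest receptor probe sets lay between -0.30 and 0.41. Between the knockouts those of Tgfbr1 and Tgfbr2 reached down to -0.36 and -0.38.

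Of the Smads that the receptor phosphorylates, Smad2 had 1 probe set. It read 8.18, 7.97 and 7.97 in CBP-deleted cells, 7.88, 7.81 and 7.99997 in p300-deleted cells and 7.84, 7.80 and 7.70 in controls. The CBP-deleted arrays lay above the controls, by 0.26 (SE 0.10), but Smad2 did not pass (adjusted p = 0.193). The difference in p300-deleted cells was 0.12 (adjusted p = 0.611).

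Smad3 was read weakly by both of its probe sets. 1450472_s_at read 4.08, 4.04 and 3.75 in CBP-deleted cells, 3.95, 3.97 and 4.23 in p300-deleted cells and 4.08, 4.51 and 4.32 in controls. The CBP-deleted arrays lay just below the lowest control, with a difference of -0.35 (SE 0.15, adjusted p = 0.228), and the difference in p300-deleted cells was -0.26 (adjusted p = 0.417). The other probe set was below the Xist mark on every array, at 3.23 to 3.64.

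Smad4, the common partner, had 3 bright probe sets that did not run together. 1422487_at read 9.96, 9.94 and 9.87 in CBP-deleted cells, 10.01, 10.17 and 10.19 in p300-deleted cells and 10.005, 9.59 and 10.01 in controls, where replicate 2 was low. In p300-deleted cells 1422487_at and 1422486_a_at differed from the control by 0.25 each (adjusted p = 0.273 and 0.203), and 1422485_at by -0.16. In CBP-deleted cells the differences were 0.05, -0.03 and, for 1422485_at, -0.31 (adjusted p = 0.183), for which the CBP-deleted arrays (8.73, 8.75 and 8.39) lay below the controls (8.96, 8.93 and 8.91). All 3 were lower in CBP-deleted than in p300-deleted cells, by -0.20, -0.29 and -0.15, and none passed (adjusted p = 0.432, 0.157 and 0.605).

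Smad7, the inhibitory Smad that TGF-beta induces, read 9.39, 9.27 and 8.89 in CBP-deleted cells, 9.14, 9.20 and 9.25 in p300-deleted cells and 9.31, 9.47 and 9.44 in controls. The p300-deleted arrays lay below all controls, and the CBP-deleted arrays overlapped them, with replicate 3 lowest. The differences of -0.22 (95% interval -0.49 to 0.04) and -0.21 (95% interval -0.47 to 0.06) did not pass (adjusted p = 0.350 and 0.422). Ski, a repressor of Smad complexes, read 8.70, 8.54 and 8.29 in CBP-deleted cells, 8.55, 8.74 and 8.81 in p300-deleted cells and 8.80, 8.50 and 8.72 in controls, and all groups overlapped. Its differences from the control were -0.17 (adjusted p = 0.528) and 0.03 (adjusted p = 0.949).

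Skil, the relative of Ski that the pathway induces, had 2 probe sets. The brighter, 1452214_at, read 9.61, 9.45 and 9.21 in CBP-deleted cells, 9.9997, 10.02 and 9.84 in p300-deleted cells and 9.59, 9.68 and 9.72 in controls. The p300-deleted arrays lay above all others, and the CBP-deleted arrays overlapped the controls. Skil was lower in CBP-deleted than in p300-deleted cells by -0.53 (SE 0.10, 95% interval -0.76 to -0.30, limma adjusted p = 0.0213). The 2 differences from the control were of opposite sign, -0.24 (adjusted p = 0.237) in CBP-deleted and 0.28 (adjusted p = 0.182) in p300-deleted cells, and neither passed.

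The dimmer Skil probe set, 1422054_a_at, read 4.62, 4.47 and 4.27 in CBP-deleted cells, 4.78, 4.62 and 4.79 in p300-deleted cells and 4.07, 3.92 and 4.44 in controls. Its p300-deleted arrays lay above the controls, with a difference of 0.59 (SE 0.15, adjusted p = 0.0698), the largest of the members in that comparison. Without control replicate 3 this difference was 0.73 and passed (adjusted p = 0.0185). In CBP-deleted cells it differed by 0.30 (adjusted p = 0.313), with the sign opposite to that of the brighter probe set. Between the knockouts both were lower in CBP-deleted cells, the dimmer one by -0.28 (adjusted p = 0.411). The Skil call was lost without CBP-deleted replicate 2 or 3 or p300-deleted replicate 1 or 2 (adjusted p 0.0827 to 0.0980) and for the mean of both probe sets (-0.40, adjusted p = 0.0760), and it was made under the other 15 of 20 alternatives.

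Markers of other cells also differed between the knockouts. Of 4 plasma cell markers 3 were lower in CBP-deleted cells, Sdc1, Jchain and Tnfrsf17, with summed log2 levels of 11.68 to 12.24 against 12.81 to 13.11. Of 5 mast cell and basophil markers 1 was lower, Cpa3, with summed levels of 7.26 to 8.56 against 8.53 to 9.43, and Ms4a2 was below the Xist mark on every array. Cd5 of the 6 T cell markers was lower by -0.46. The spike-ins, given above, were also lower on the CBP-deleted arrays. The part of these measures in the Skil and Itgav results was not tested. Against the control, p300-deleted cells had higher Cd3g, Cd4 and Cd2 among T cell markers, Jchain and Tnfrsf17 among plasma cell, Camp among 11 myeloid and Mcpt8 and Cma1 among mast cell markers, and CBP-deleted cells had higher Cd2, the Treg marker Ctla4 and Cd8b1. Dendritic and stromal markers had 0 calls in all 3 comparisons.

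**Figure D2:**
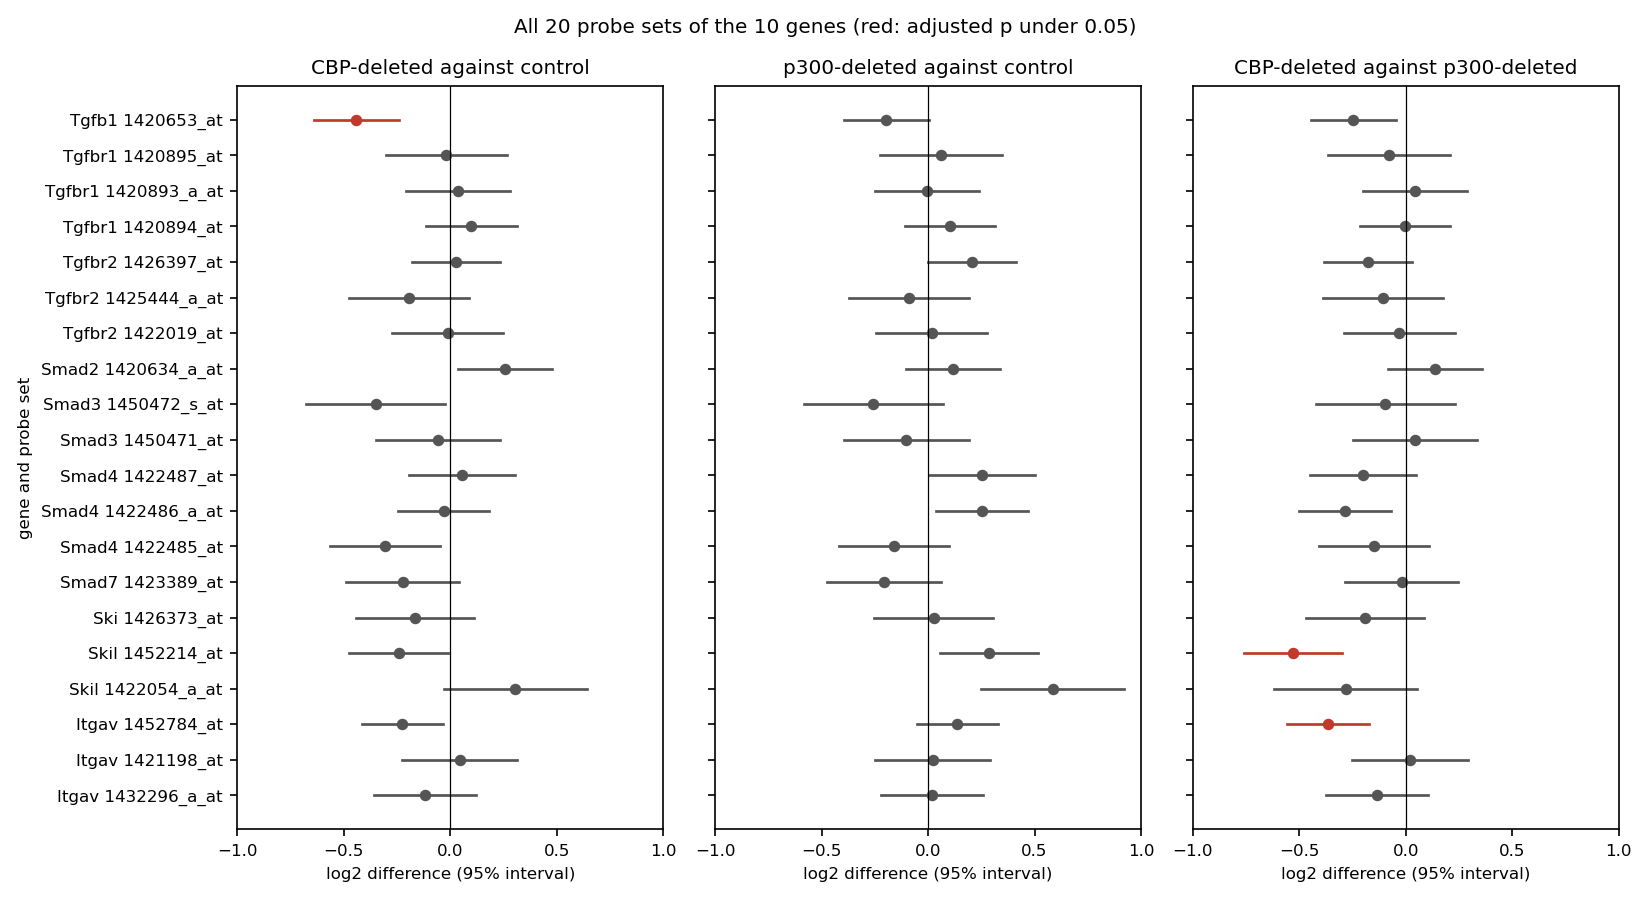
Log2 difference (x axis) of each of the 20 probe sets (y axis, by gene and then from the brightest to the dimmest) in the 3 comparisons. Points are limma estimates and lines their 95% intervals from 3 arrays per group; red marks an adjusted p under 0.05, which Tgfb1 reaches in CBP-deleted against control cells, and Skil and Itgav between the knockouts.

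Counted over the members, 1 of 20 probe sets was called between CBP-deleted and control cells, 0 higher and 1 lower, where 2.50% of all probe sets were called, 1.26% higher and 1.25% lower. Between p300-deleted and control cells 0 of 20 were called by limma, where 2.62% of all probe sets were called, 1.45% higher and 1.17% lower. Between CBP-deleted and p300-deleted cells 2 of 20 were called, both lower, where 3.35% of all were called, 2.10% higher and 1.25% lower. An unadjusted p under 0.05 was found for 6, 4 and 4 of the 20 members in the 3 comparisons, beside 18.9%, 17.3% and 16.2% of all probe sets. Groups lay wholly apart for 6 of 20 members (30%) in the first comparison, 5 (25%) in the second and 7 (35%) in the third, beside 22.8%, 19.7% and 27.5% of all probe sets.

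The median difference of the members was -0.05, 0.02 and -0.12, beside -0.02, -0.01 and -0.02 over all probe sets. Between the knockouts 16 of 20 members had a negative sign as deposited, 15 with the array medians subtracted and 14 after quantile normalization. Against the control 13 of 20 were negative in CBP-deleted cells and 7 of 20 in p300-deleted cells, and with the array medians subtracted the p300 count was 11. The last count thus turned with the scaling. On the plot of all probe sets the members lay inside the range. Skil lay out in the tails with its dimmer probe set in p300-deleted cells (0.59, not called) and its brighter one between the knockouts (-0.53). The brighter one differed by 0.28 in p300-deleted cells, and the dimmer one by -0.28 between the knockouts. The median absolute difference of the members was 0.14, 0.13 and 0.14, beside 0.14, 0.13 and 0.12 over all probe sets. For the brightest probe set of each gene it was 0.23, 0.20 and 0.18 in the members, beside 0.13, 0.12 and 0.12 over all genes. This last comparison was not matched for signal level. Apart from that of Smad3, these member probe sets had means above those of at least 76.6% of all probe sets.

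**Figure D3:**
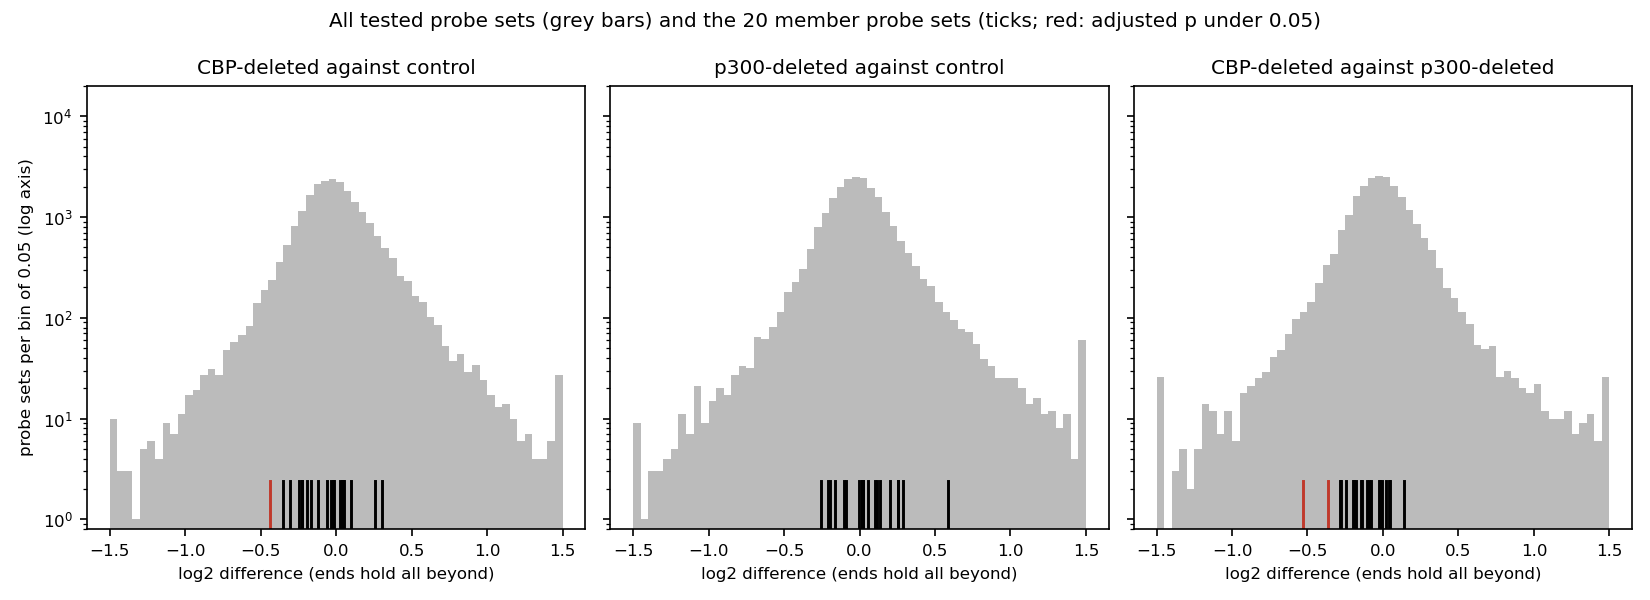
Number of tested probe sets (grey bars, log y axis, bins of 0.05, with the ends holding all values beyond) by log2 difference (x axis) in each comparison, with a tick for each of the 20 member probe sets and red ticks for an adjusted p under 0.05. The members span -0.44 to 0.30, -0.26 to 0.59 and -0.53 to 0.14, well inside the range of all probe sets.

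Other genes of the pathway were listed by role, 81 in all, of which 73 were measured by 137 probe sets. Between CBP-deleted and control cells 2 of the 137 probe sets rose and 5 read lower, 1 of them that of Foxp3. Between p300-deleted and control cells 1 rose and 1 read lower, that of Foxp3, and between the knockouts 0 were higher and 2 lower in CBP-deleted cells. These are 5.11%, 1.46% and 1.46%, beside the 2.50%, 2.62% and 3.35% of all probe sets.

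Of the target genes that TGF-beta raises, 11 of 13 were measured by 18 probe sets, of which 2 read lower in CBP-deleted cells and 0 rose. The first was that of Foxp3, whose own fall is not established, and the other was that of Id3, an inhibitor of E proteins that helps maintain Treg cells. Id3 read 8.16, 7.87 and 7.92 in CBP-deleted cells, 8.41, 8.82 and 8.65 in p300-deleted cells and 9.08, 9.47 and 8.97 in controls. All 3 groups lay apart, in the same order as for Tgfb1. Id3 fell by 1.19 (SE 0.15, limma adjusted p = 0.00475) in CBP-deleted cells and differed by -0.55 (adjusted p = 0.0782) in p300-deleted cells. It was lower in CBP-deleted than in p300-deleted cells by -0.64 (adjusted p = 0.0413), which was lost under 11 of 20 alternatives (adjusted p up to 0.174), among them the replicate block and leaving out any knockout array or control replicate 1. The fall against the control passed under all 20 alternatives, at adjusted p of 0.000893 to 0.0325.

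Of the genes that TGF-beta represses in T cells, 10 of 10 were measured by 13 probe sets, and 1 fell in CBP-deleted cells. This was Tbx21, the lineage factor of Th1 cells, which fell by 1.14 (SE 0.24, adjusted p = 0.0353). The Tbx21 call was lost under 7 of 20 alternatives (adjusted p up to 0.127), among them leaving out any CBP-deleted array, control replicate 1 or 2 or p300-deleted replicate 2. In p300-deleted cells 0 of these passed, and the largest differences were those of Gzmb, a granzyme (-1.09, adjusted p = 0.159, or -0.58 without control replicate 3), and Tbx21 (-0.68, adjusted p = 0.160). Between the knockouts 0 passed, with Gzmb at 0.78 and Prf1, the pore-forming protein of cytotoxic cells, at -0.49.

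Among other ligands, 1 of 13 probe sets fell in CBP-deleted cells, that of Bmp7, a bone morphogenetic protein, by 0.85 (SE 0.18, adjusted p = 0.0353). This call was lost under 10 of 20 alternatives (adjusted p up to 0.128), among them the replicate block and leaving out any array but control replicate 3. The second Bmp7 probe set differed by -0.26 (adjusted p = 0.378), and between the knockouts it was called, at -0.68 (adjusted p = 0.0312). That call was lost under 7 of 18 alternatives (adjusted p up to 0.132), among them the replicate block and leaving out any CBP-deleted array or p300-deleted replicate 1 or 2. In p300-deleted cells 0 ligands passed, with the second Bmp7 probe set at 0.42; Tgfb3 was below the Xist mark in the mean of each group. Among other receptors, 1 of 20 was called, and higher, in CBP-deleted cells, that of the activin receptor Acvr2a (adjusted p = 0.0288). It read 4.49, 4.22 and 4.23 there and 3.39, 3.63 and 3.76 in controls. The control readings lay under the Xist mark, so the size of the difference was not measured by this probe set. A brighter Acvr2a probe set had means of 6.38 in CBP-deleted cells and 5.95 in controls. Its difference of 0.43 (SE 0.13) did not pass (limma adjusted p = 0.0949), and its CBP-deleted arrays lay above all controls. The call of the dimmer Acvr2a probe set was lost under 7 of 17 alternatives (adjusted p up to 0.113). Among them were the replicate block and leaving out any CBP-deleted array or control replicate 1. The other 2 comparisons had 0 receptor calls, with Bambi, a decoy receptor, at 0.33 in p300-deleted cells and -0.57 between the knockouts.

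Of 25 probe sets of other Smads and nuclear partners, 1 fell in CBP-deleted cells, that of the transcription factor Sp1, by 0.55 (SE 0.13, adjusted p = 0.0481). It was called under 5 of 20 alternatives and lost when any single array was left out. In p300-deleted cells 0 passed, with Runx1, a partner of Foxp3, at 0.41 and Smad1 at 0.38; between the knockouts 0 passed, with Sp1 at -0.49 and Smad1 at -0.46. Of 27 probe sets of turnover factors and brakes, the brightest of Strap, an adaptor that stabilises the binding of Smad7 to the receptor, rose by 0.40 (SE 0.08, adjusted p = 0.0279) in CBP-deleted cells. The other Strap probe sets differed by 0.36 and 0.42 and did not pass (limma adjusted p = 0.121 and 0.168). The Strap call was lost under 7 of 20 alternatives (adjusted p up to 0.116), among them the replicate block and leaving out any CBP-deleted array, control replicate 1 or p300-deleted replicate 2. Of 7 probe sets of Usp9x, a deubiquitinase that acts on Smad4, 1 rose in p300-deleted cells, 1420922_at, by 0.58 (SE 0.12, adjusted p = 0.0296). The other probe sets of Usp9x with readings above the Xist mark differed by 0.44, 0.41 and 0.10 and did not pass. The Usp9x call was lost under 9 of 20 alternatives (adjusted p up to 0.167), among them the mean of its probe sets (0.26), the replicate block and leaving out any p300-deleted array, control replicate 1 or CBP-deleted replicate 2. Between the knockouts 0 passed, with Strap at 0.40 for its dimmest probe set, 1419913_at, and Nedd4l, a ubiquitin ligase, at -0.29.

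Of 21 probe sets of latency and activation genes 0 passed in any comparison. Itgb1, a beta chain that pairs with alpha v, had the largest difference in CBP-deleted cells, 1.16 for 1452545_a_at (SE 0.34, adjusted p = 0.0950). This probe set read 8.82, 8.71 and 8.61 there and 7.82, 6.59 and 8.24 in controls, where replicate 2 was far below the others. Without that array the difference was 0.68 (adjusted p = 0.0900). Another Itgb1 probe set, 1426918_at, differed by 1.03 (limma adjusted p = 0.0649), or by 0.67 without that array. Ltbp3, a latent TGF-beta binding protein, differed by 0.47 (adjusted p = 0.178). In p300-deleted cells 1452545_a_at of Itgb1 differed by 0.58, 1426918_at by 0.32 and Itgb5 by 0.47. The 0.58 became 0.10 with control replicate 2 left out, 0.92 with control replicate 3 left out and 0.38 with p300-deleted replicate 1 left out. Between the knockouts 1426918_at of Itgb1 differed by 0.71, 1452545_a_at by 0.58 and Itgb3 by 0.39.

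**Figure D4:**
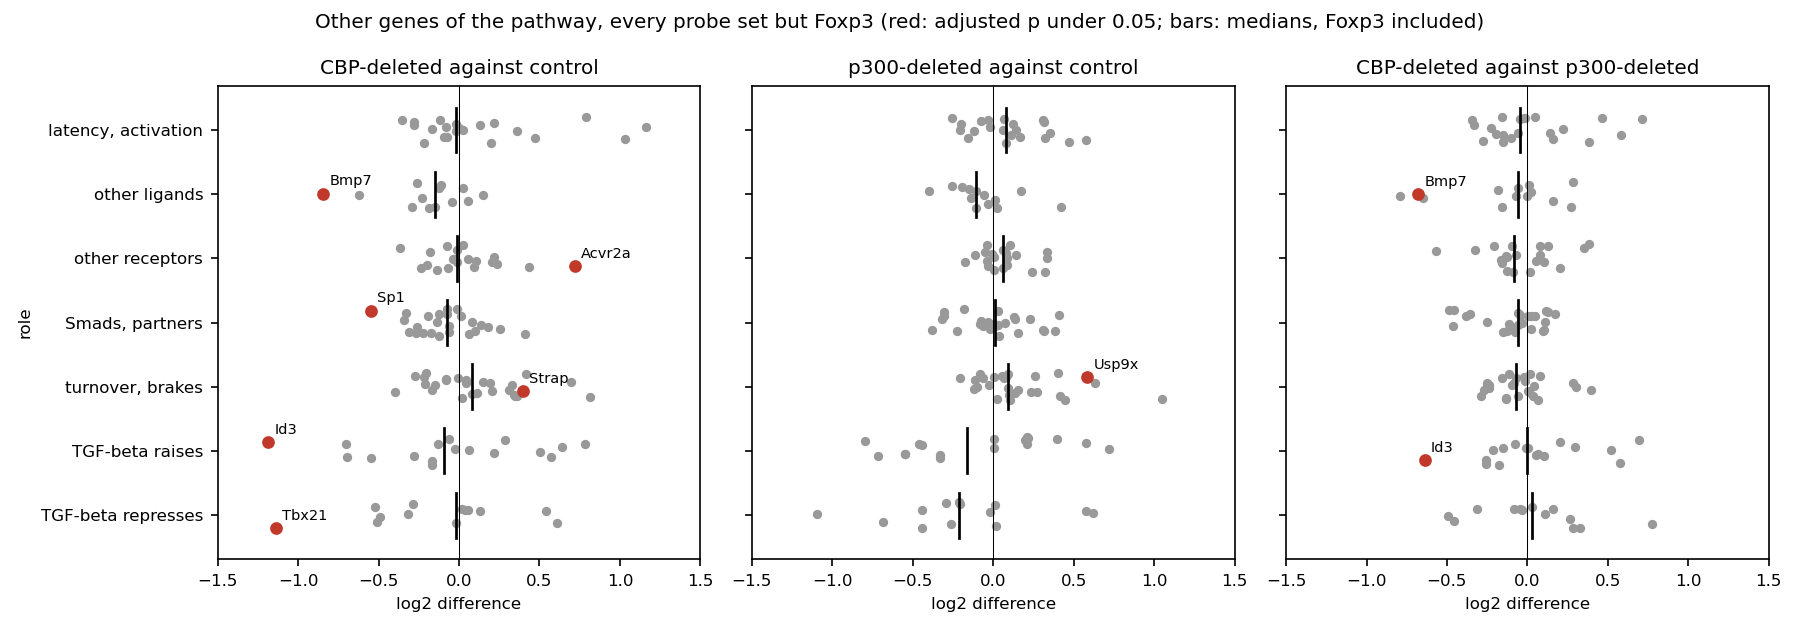
Log2 difference (x axis) of every probe set of the listed pathway genes other than Foxp3, by role (y axis), in the 3 comparisons; grey points were not called, red points had an adjusted p under 0.05 and carry the gene's name, and bars are the medians over the role with Foxp3 included. The calls are spread singly over 6 of the 7 roles, and Id3 at -1.19 and Tbx21 at -1.14 lie lowest in CBP-deleted cells.

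The genes whose values most resembled those of a member over the 9 arrays were found by the root mean square difference after each probe set's own mean was subtracted. For Tgfb1, whose own values had a root mean square of 0.20 about their mean, these were Tnip1 (0.04), a brake on NF-kappaB, Prr14 (0.04) and the kinase Mapkapk2 (0.05). For the dimmer Skil probe set (0.29) they were Slc25a30 (0.07), Serinc1 (0.09) and Pcmtd2 (0.10). For the brightest Itgav probe set (0.16) they were Eif4e3 (0.05), Rc3h2 (0.05) and Nfkbia (0.05), the inhibitor of NF-kappaB. All are drawn from 12393 genes on the same 9 arrays.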

How the data were processed

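Per the labels, total RNA (100 ng) of each sample was amplified, labelled with biotin and hybridised to 1 array. The authors deposited log2 values per probe set, and per the submitters' processing notes they used RMA; versions, background and annotation settings are not given in the sources used here. The values were used as deposited. Of 22690 probe sets, 64 control probe sets were set aside; of the 22626 tested, 20380 carry 1 symbol in GEO's platform annotation, 691 several and 1555 are not named here.

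The fit took all 9 arrays and gave each group its own mean (limma 3.58.1, R 4.3.3; 6 residual degrees of freedom, empirical Bayes with a trend, no covariate), two-sided, with Benjamini-Hochberg adjustment over all probe sets. SE and intervals come from that fit. Precision is limited by 3 arrays a group. The p-values set each difference against the spread between the samples, as moderated across probe sets. An exact permutation test of 3 against 3 cannot give a p under 0.1 and was not used. The fit was tested on simulated data.

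The members, lists and tests were chosen with earlier results of these data known. All member probe sets are reported. Of each role of the pathway, up to 4 called probe sets with the largest change are named, or up to 2 as values where 0 passed. Genes alike in pattern were sought for the 3 members with the lowest p against the control. Marker genes named were those called and some of those at background. Cd3e, Cd4 and Il2ra, and S100a8 and S100a9 for their large uncalled differences, were chosen after their values were seen. Replicate numbers are not stated to pair samples. Alternatives were other probe set rules, scalings, moderation, weights, a replicate block and leaving out each array; the 18S covariate was added after seeing the data.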

Additional observations from a re-analysis of the deposited data

How the results depend on the processing

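Of the 60 differences of member probe sets, 55 kept their side of the threshold under all alternatives that could be run (20 each; fewer for probe sets that a filter or a choice of 1 probe set per gene removed), and no called difference changed sign. The others were Tgfb1, Skil (both probe sets), Itgav and Smad4; 1422486_a_at of Smad4 passed between the knockouts with array weights (-0.29, adjusted p = 0.0385). Signs of 22 uncalled differences changed at least once. Of 66 differences of named pathway probe sets, tried under the same alternatives after seeing the data, 42 kept their side, and no called one changed sign.

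The 1 member called between CBP-deleted and control cells became 0 without the trend, with only the 2 groups compared, with the replicate block and with the 18S covariate, and 0 to 1 when 1 array was left out. The 0 in p300-deleted cells became 1 with array weights, and 0 to 1 when 1 array was left out. The 2 between the knockouts became 0 for genes by the mean of all probe sets, 1 with the array medians subtracted, without the trend, with the replicate block and with the 18S covariate, and 0 to 2 when 1 array was left out.

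Over all probe sets the count of 566 in CBP-deleted cells became 193 with only the 2 groups compared, 2302 with array weights, 262 with the replicate block and 349 with the 18S covariate, and 85 to 1624 when 1 array was left out (lowest without CBP-deleted replicate 3, highest without control replicate 3). The 592 in p300-deleted cells became 356 for genes by the mean of all probe sets, 130 with only the 2 groups compared, 1388 with array weights, 278 with the replicate block and 184 with the 18S covariate, and 74 to 1377 when 1 array was left out (lowest without p300-deleted replicate 2, highest without control replicate 3). The 758 between the knockouts became 1733 with only the 2 groups compared and 2011 with array weights, and 134 to 1270 when 1 array was left out (lowest without CBP-deleted replicate 2, highest without control replicate 2). Apart from the smaller number of arrays or genes in some of these, the cause was not tested. The deviations of same-numbered arrays from their group means correlated at -0.22 to 0.26 over 9 pairs, and 1 of 9 was over 0.1. That pair was replicate 1 of the CBP-deleted and control arrays. Arrays of unlike number were not compared, so these values do not settle whether the arrays are paired. The replicate block lost the calls of Tgfb1 and Itgav.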
